A study of Bos taurus with 12 samples.

Results

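The genes described here drive mitosis, the stage of the cell cycle in which duplicated chromosomes are condensed, attached to the spindle, pulled apart and divided between daughter cells. They were chosen by name, from a list of 39 gene symbols for mitosis and the spindle. The rule uses no measured value, but the list was drawn up with earlier results of these data known. Of these, 32 had a row in the deposited count table of 13930 gene symbols, and 31 had enough reads to be tested among 10959 tested genes. MKI67, TOP2A, FOXM1, RACGAP1, ANLN, CENPE and SMC2 were not analysed here. The remaining member, TTK, a spindle checkpoint kinase, had a count of 0 in 5 libraries and at most 14 reads in any library.

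The libraries were made from polyadenylated RNA of endometrial biopsies, that is, of the lining of the uterus, from grazing dairy cows (Bos taurus), for a study of early diestrus progesterone and endometrial gene expression. Each of 4 classes held 3 libraries and was defined by progesterone on day 4 of the cycle. The very low class (titled ANE) lay below 0.25 ng/ml, the high class (HPP4) above 2.5 and the very high class (SO) above 20 in the same unit. The low class (LPP4) lay below 1.4, for which its label writes mg/dl, so only the order of the classes was used. No genotype, treatment or age is given, and the sources used here do not explain the titles ANE and SO, or state any other difference of those classes. Whether replicates came from separate cows is not stated in the labels. The p-values here therefore reflect only the spread among these samples, which may not be the spread among cows.

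Most cells of an adult tissue are not dividing, and transcripts of mitotic genes rise late in the cell cycle, shortly before division, so their level in a tissue is widely read as a mark of dividing cells. Cyclin B with its partner kinase CDK1 starts mitosis, Aurora and Polo-like kinases build the spindle, checkpoint proteins hold chromosome separation until every kinetochore is attached, and the anaphase-promoting complex then marks cyclins for destruction. In the endometrium, proliferation of epithelium and stroma changes over the estrous cycle under ovarian steroids. In these bulk samples, fewer dividing cells and less RNA per dividing cell cannot be told apart.

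All levels are in CPM, read counts scaled to library size by the TMM method, with the SD over the 3 libraries of a class. Libraries held 3772564 to 8379489 counted reads. A count of 3, the limit that a count of 0 allows for counting error, corresponded to 0.343 to 0.774 CPM, and several members lay near it in the very high class. DLGAP5, for example, had 4 to 7 reads there.

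Summed over the list, the mitotic genes were lowest in the very high progesterone class, and the mean of the high class lay between it and the means of the very low and low classes. Leaving aside CCNB1 and PLK1, which had another pattern, the summed level of the other 30 members was 428.9 ± 232 CPM in the very low, 466.2 ± 242 CPM in the low, 209.1 ± 71.9 CPM in the high and 118.1 ± 15.9 CPM in the class of very high progesterone (SD, n = 3 each). Over these 30 members the mean of the very high class was 0.275 times that of the very low and 0.253 times that of the low class. The 2 genes were left out for their own values, so these ratios describe the remaining members only. By library the sums were 210.3, 404 and 672 CPM in the very low class, 383, 277 and 739 CPM in the low class, 154, 182 and 291 CPM in the high class, and 130.0, 99.97 and 124 CPM in the very high class. In these sums without CCNB1 and PLK1 the 3 very high libraries lay below the other 9, whereas very low replicate 1 lay between the high libraries. Among the 31 tested members, the class mean was lowest in the very high class for 29 and highest in the low class for 19, in the very low class for 11 and in the high class for 1.

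**Figure D1:**
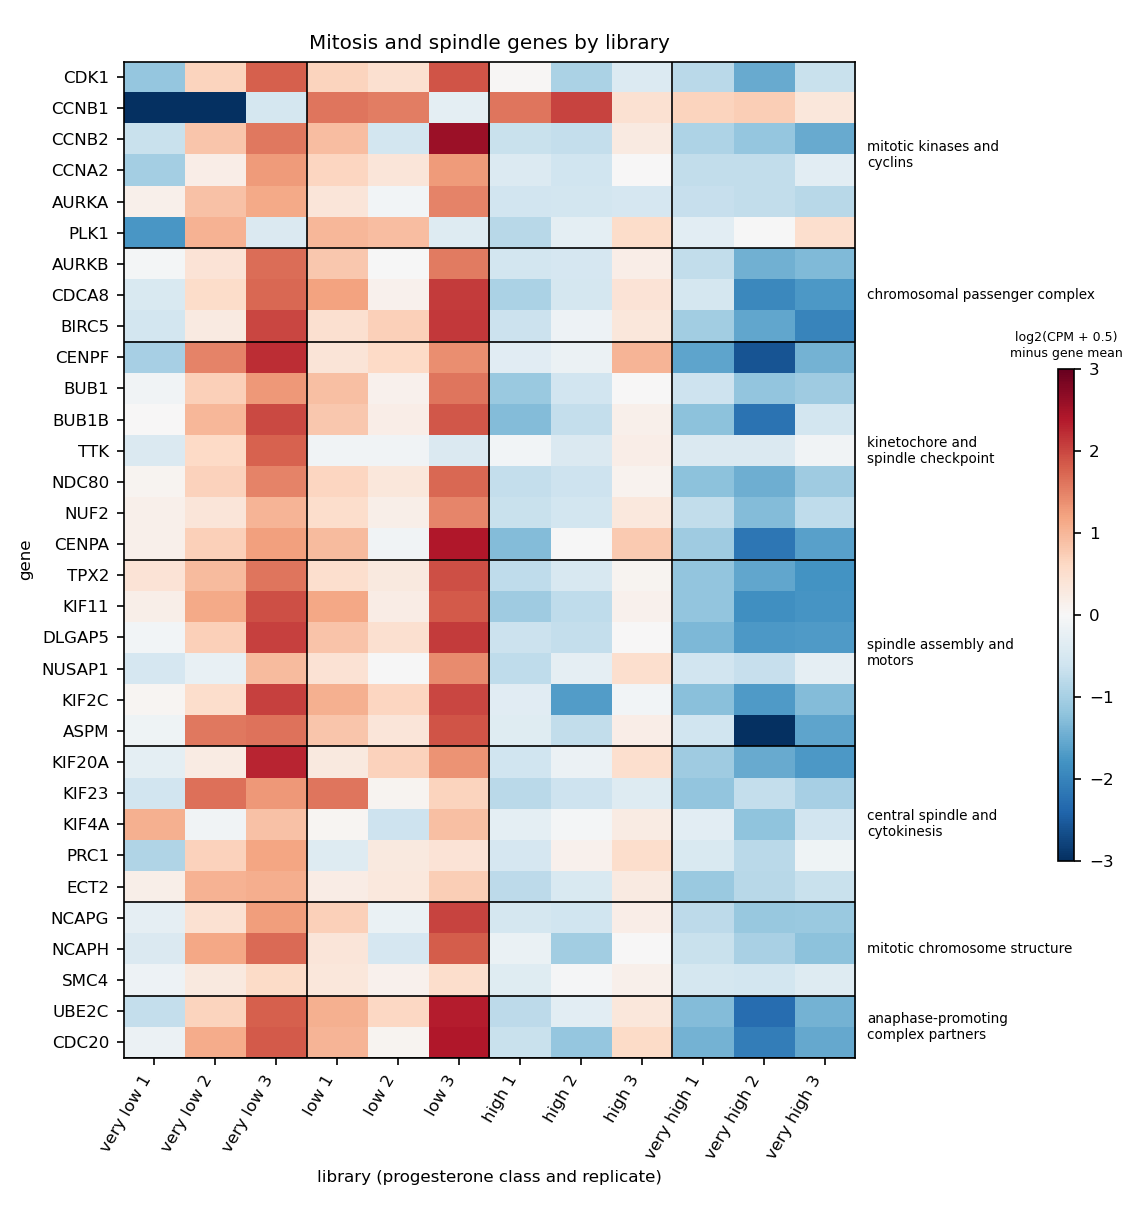
Level of each of the 32 members (rows, grouped by role) in each of the 12 libraries (columns), as log2(CPM + 0.5) minus the gene's mean over libraries. Most rows are high in very low replicate 3 and low replicate 3 and low in the 3 very high libraries, and CCNB1 runs otherwise, with its lowest values in very low replicates 1 and 2.

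Very high against very low progesterone was the comparison of the extreme classes. Of 31 tested members, 3 fell and 0 rose at an edgeR adjusted p under 0.05 (quasi-likelihood test, Benjamini-Hochberg over all tested genes), where 0.411% of all tested genes fell. The 3 were TPX2, KIF11 and DLGAP5, all of the spindle assembly group. The fitted log2 fold change was negative for 29 of 31 members, and the median was -2.15 against -0.12 over all tested genes. At an unadjusted edgeR p under 0.05, 26 members were lower (background 13.4%) and 1, CCNB1, was higher. In 25 members every very high library lay below every very low library (background 12.2%). DESeq2 called 26 members lower (background 7.11%) and CCNB1 higher, and limma-voom called 0.

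TPX2 encodes the protein that targets Aurora A to spindle microtubules. Its level was 14.7, 21.4 and 34.2 CPM in very low replicates 1 to 3, 15.6, 13.4 and 43.0 CPM in the low, 6.17, 7.65 and 11.6 CPM in the high and 4.46, 3.37 and 2.77 CPM in the very high class. The high and very high classes each lay below all 6 very low and low libraries and did not overlap with each other. The fall from 23.4 ± 9.91 to 3.53 ± 0.858 CPM (SD, n = 3) gave a log2 fold change of -2.72 ± 0.52 (SE, edgeR adjusted p = 0.0383).

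KIF11, the kinesin that pushes the spindle poles apart, stood at 6.01, 12.1 and 21.6 CPM in the very low class, 12.5, 6.27 and 20.3 CPM in the low, 2.28, 2.93 and 5.87 CPM in the high and 2.06, 1.12 and 1.19 CPM in the very high class. Again no high or very high library reached the lowest of the other classes. The means were 13.2 ± 7.84 and 1.46 ± 0.523 CPM (SD, n = 3), with a log2 fold change of -3.17 ± 0.64 (SE, edgeR adjusted p = 0.0405). DLGAP5, which stabilises spindle microtubules near chromosomes, had 2.65, 4.90 and 13.1 CPM in the very low class, 5.54, 4.09 and 13.7 CPM in the low, 1.61, 1.53 and 2.86 CPM in the high and 0.801, 0.499 and 0.528 CPM in the very high class. The very high libraries lay below all others, and high replicate 3 lay above very low replicate 1. DLGAP5 fell from 6.89 ± 5.52 to 0.609 ± 0.167 CPM (SD, n = 3), a log2 fold change of -3.47 ± 0.72 (SE, edgeR adjusted p = 0.0458).

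The count of 3 depended on single libraries. It was 19 without very low replicate 1, 7 without low replicate 3 and 1 without low replicate 1. No member was called lower without very low replicate 2 or 3, or without any 1 of the 6 high and very high libraries (edgeR). Calls over all tested genes moved too, from 167 to 643, 341 and 116 in the order of the first sentence on counts. They were 1 and 324 without very low replicates 2 and 3, and 74, 52 and 17 without high replicates 1 to 3. Without very high replicates 1 to 3 they were 0, 0 and 2. Members lower at an unadjusted p under 0.05 were then 26, 24 and 25, and 21 without very low replicate 3.

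**Figure D2:**
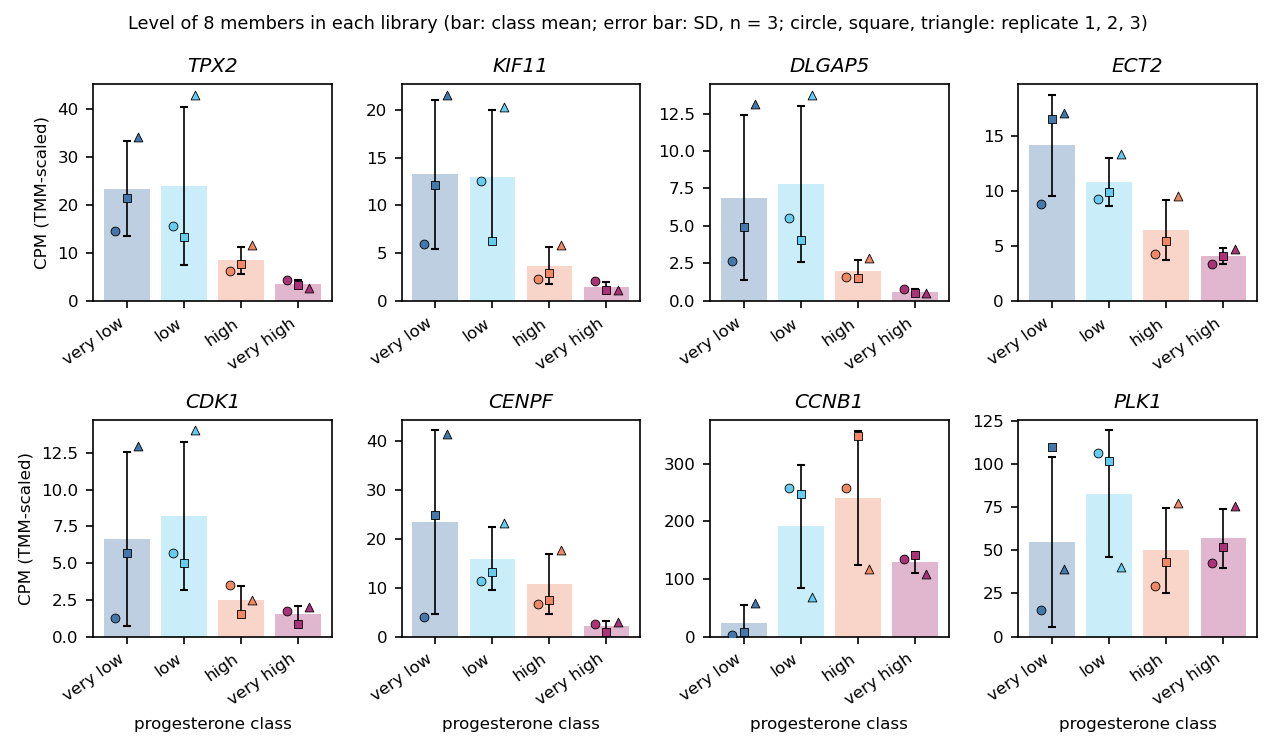
Level in CPM (vertical axes, each starting at 0) of TPX2, KIF11, DLGAP5, ECT2, CDK1, CENPF, CCNB1 and PLK1 in the 4 progesterone classes. Bars are class means, error bars the SD over 3 libraries, and circle, square and triangle are replicates 1, 2 and 3; the very high libraries lie below the very low ones for TPX2, KIF11, DLGAP5, ECT2 and CENPF, and CCNB1 is lowest in the very low class.

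The ordered trend over the classes used all 12 libraries, with ranks 1 to 4 in order of rising progesterone, and its slopes are log2 units per rank. It shares all of its libraries with the pairwise comparisons, so it is another summary of the same values. Of 31 tested members, 17 fell with rank and 0 rose (edgeR adjusted p under 0.05, background 4.46% lower), and the median slope was -0.84 against -0.04 over all tested genes. At an unadjusted p under 0.05, 27 were lower (background 16.7%). DESeq2 called 26 lower (background 10.3%) and limma-voom 5, namely TPX2, KIF11, AURKA, NDC80 and ECT2 (background 1.19%).

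The members with the smallest p in the trend were ECT2, TPX2 and KIF11. ECT2, the exchange factor that activates RhoA for the cleavage furrow, had 8.84, 16.5 and 17.0 CPM in the very low class, 9.23, 9.85 and 13.3 CPM in the low, 4.29, 5.48 and 9.55 CPM in the high and 3.32, 4.11 and 4.75 CPM in the very high class. High replicate 3 overlapped with the very low and low libraries, and the very high libraries lay below all 6 of these. The slope of ECT2 was -0.61 ± 0.12 (SE, edgeR adjusted p = 0.0228). TPX2 had a slope of -0.99 ± 0.19 and KIF11 of -1.15 ± 0.23 (SE, edgeR adjusted p = 0.0228 for both), and DLGAP5 of -1.25 ± 0.28 (SE, edgeR adjusted p = 0.0310).

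The trend's count also moved with single libraries. Without very low replicate 1 it was 27. It was 3 when very low replicate 2, very low replicate 3, high replicate 1 or high replicate 2 was left out, 7 when high replicate 3 was, and 0 without any 1 of the 3 very high libraries (edgeR). The calls over all tested genes in these same fits are not given here. These counts therefore do not show whether the change was particular to the members.

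**Figure D3:**
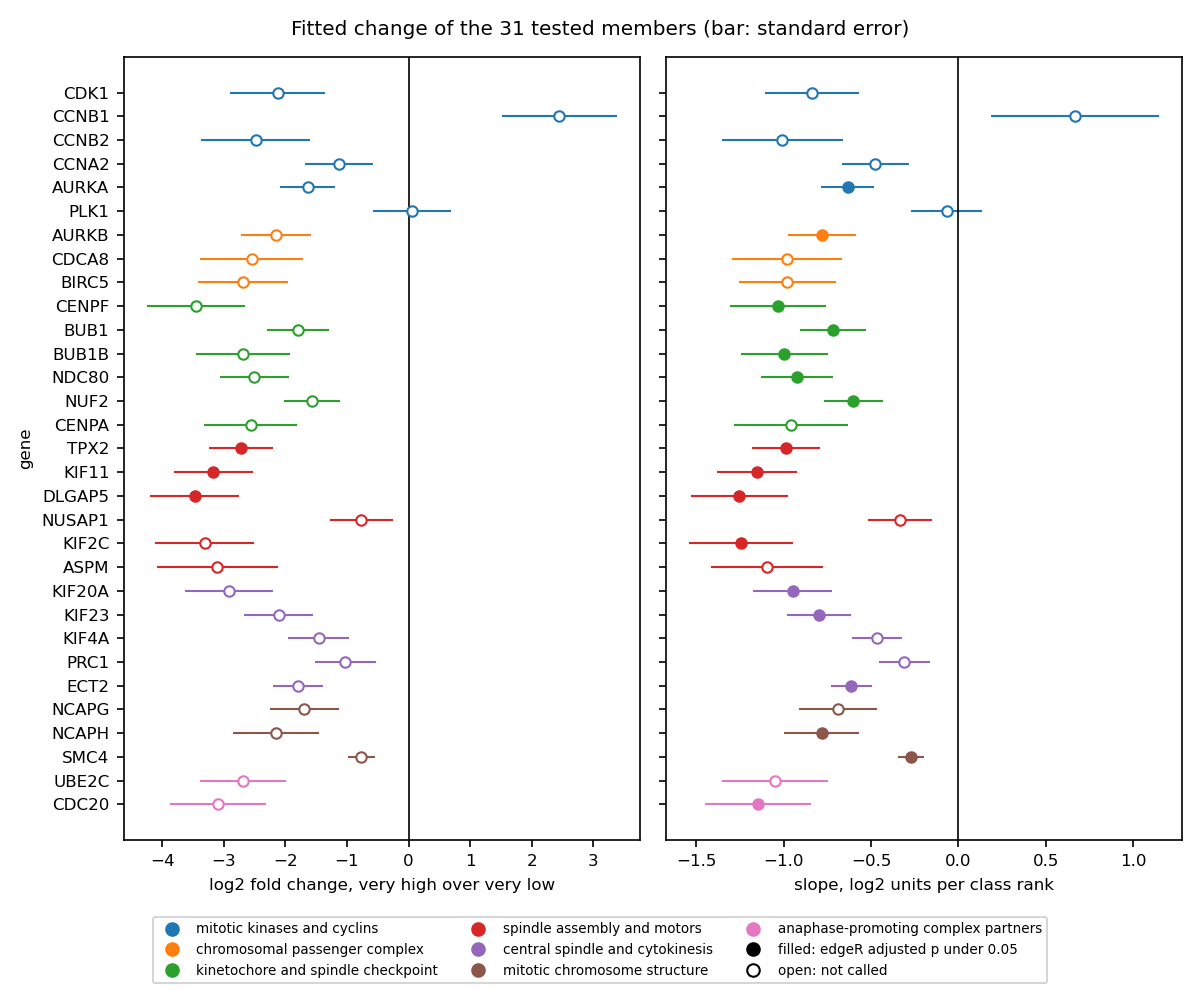
Fitted change of the 31 tested members (rows, coloured by role) with standard errors. Left, log2 fold change of very high over very low; right, slope in log2 units per class rank; filled points passed an edgeR adjusted p under 0.05, 3 on the left and 17 on the right, and CCNB1 is the member farthest to the right of 0.

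The members are described next by role. Beside the counts by role, 4.46% of all tested genes fell in the trend and 0.411% fell between the extreme classes (edgeR adjusted p under 0.05). In 12.2% of all tested genes every very high library lay below every very low library. Among the 6 mitotic kinases and cyclins, 1 fell in the trend and 0 passed in the comparison of the extreme classes, where the median log2 fold change was -1.38. CDK1, the kinase whose activation starts mitosis, had 1.24, 5.68 and 13.0 CPM in the very low class, 5.67, 4.99 and 14.04 CPM in the low, 3.49, 1.53 and 2.46 CPM in the high and 1.72, 0.873 and 1.98 CPM in the very high class. Very low replicate 1 lay within the very high range, and the other very low and low libraries lay above all high and very high ones. The log2 fold change of CDK1 was -2.12 ± 0.77 (SE, edgeR adjusted p = 0.138), and its slope was -0.84 ± 0.27 (SE, edgeR adjusted p = 0.0715). AURKA, the spindle pole kinase that TPX2 activates, fell in the trend (-0.63 ± 0.15 per rank, SE, edgeR adjusted p = 0.0341). AURKA had 7.78 to 15.9 CPM in the very low, 6.53 to 20.6 CPM in the low, 4.56 to 4.77 CPM in the high and 3.69 to 4.12 CPM in the top class, so that the high and very high libraries lay below the other 6. The cyclin CCNB2 ranged over 1.59 to 9.49 CPM in the very low class against 0.660 to 1.26 CPM in the very high class, and CCNA2, the cyclin of S and G2 phase, over 2.83 to 15.9 and 3.49 to 4.88 CPM. The CCNB2 ranges did not overlap and those of CCNA2 did, and neither gene passed with edgeR in these comparisons. DESeq2 called CCNB2 lower between the extreme classes (adjusted p = 0.0414) and in the trend (adjusted p = 0.00777).

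CCNB1, which encodes cyclin B1, went the other way. It had 2.30, 8.52 and 58.9 CPM in very low replicates 1 to 3, 258, 248 and 68.9 CPM in the low, 257, 349 and 117 CPM in the high and 135, 142 and 108 CPM in the very high class. Below the other 9 libraries lay the 3 of the very low class, and low replicate 3 came next. Against the very low class, the log2 fold change of CCNB1 was 3.02 ± 0.95 in the low (SE, edgeR adjusted p = 0.316), 3.36 ± 0.97 in the high (adjusted p = 0.146) and 2.45 ± 0.93 in the very high class (adjusted p = 0.149). These 3 values share the very low libraries, and none passed the threshold with edgeR. Without very low replicate 3, CCNB1 passed in the very high class with 4.61 (edgeR adjusted p = 0.0264). The slope of CCNB1 was 0.67 ± 0.48 (SE, edgeR adjusted p = 0.388).

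The ratio of CCNB1 to CCNB2 reads shows how far the cyclin B genes parted. It was 1.44, 1.57 and 6.21 in the very low class, 44.5, 138.2 and 3.58 in the low class, 159.8, 228.1 and 33.1 in the high class, and 107.6, 142.8 and 164.2 in the very high class. In the very low class and in low replicate 3 it lay below 10, and the other 8 libraries lay above 30. Several of these ratios rest on few CCNB2 reads and are imprecise. CCNB2 had 11, 8 and 5 reads in the very high class, 12 each in high replicates 1 and 2, 14 in low replicate 2 and 9 in very low replicate 1.

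PLK1, the Polo-like kinase of spindle assembly and mitotic entry, had no order over the classes. It had 15.4, 109.7 and 39.1 CPM in the very low class, 106, 102 and 40.4 CPM in the low, 29.3, 43.1 and 77.1 CPM in the high and 42.4, 52.1 and 75.7 CPM in the very high class. All classes overlapped, and the lowest and the highest library were both of the very low class. The log2 fold change of very high over very low was 0.06 ± 0.63 (SE, edgeR adjusted p = 0.965), a standard error that leaves changes in either direction possible. The slope was -0.07 ± 0.20 (SE, edgeR adjusted p = 0.865). The ratio of PLK1 to AURKA reads was 1.98, 8.33 and 2.47 in the very low, 11.7, 15.6 and 1.96 in the low, 6.41, 9.39 and 16.1 in the high and 10.3, 13.1 and 20.5 in the very high class. Low replicate 3 lay with very low replicates 1 and 3, below the other 9 libraries.

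**Figure D4:**
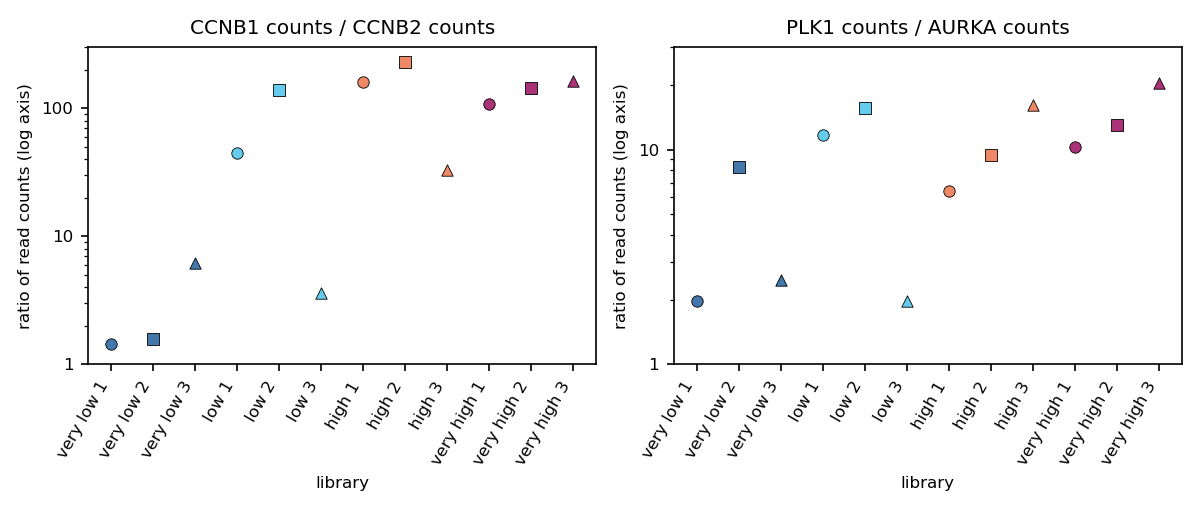
Ratio of CCNB1 to CCNB2 read counts (left) and of PLK1 to AURKA read counts (right), on log axes, in each of the 12 libraries. The cyclin ratio is 1.44 to 6.21 in the 3 very low libraries and 3.58 in low replicate 3, and 33.1 to 228.1 in the other 8. CCNB2 had only 5 to 11 reads in the very high libraries, so their ratios are imprecise.

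Of the chromosomal passenger complex, which corrects faulty attachments and guides cytokinesis, 1 of 3 members fell in the trend and 0 passed between the extreme classes (median log2 fold change -2.54). AURKB, its kinase, fell by 0.78 per rank (SE 0.19, edgeR adjusted p = 0.0372), with 7.95, 11.4 and 27.8 CPM in the very low class against 4.81, 2.74 and 3.03 CPM in the very high class. BIRC5, the subunit survivin, had 4.77, 8.78 and 30.4 CPM in the very low class against 3.20, 2.12 and 1.45 CPM in the very high class (slope -0.98, edgeR adjusted p = 0.0504). CDCA8, the subunit borealin, had 2.30, 5.16 and 12.2 CPM and 2.17, 0.499 and 0.660 CPM (slope -0.98, edgeR adjusted p = 0.0714). The very high libraries of all 3 genes lay below the very low ones, for CDCA8 by little, with 0.499 to 2.17 against 2.30 to 12.2 CPM.

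Of the kinetochore and checkpoint group, 5 of 6 tested members fell in the trend and 0 passed between the extreme classes, where the median log2 fold change was -2.53 and all 6 had ranges that did not overlap. CENPF, a large kinetochore protein made in late G2, had 4.07, 24.8 and 41.5 CPM in the very low class, 11.3, 13.2 and 23.3 CPM in the low, 6.71, 7.52 and 17.7 CPM in the high and 2.52, 0.997 and 2.90 CPM in the very high class. The very high libraries lay below all others, and the high libraries overlapped with the very low and low ones. Its slope was -1.03 ± 0.27 (SE, edgeR adjusted p = 0.0424). Between the extreme classes CENPF missed the threshold (-3.45 ± 0.79, SE, edgeR adjusted p = 0.0561).

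The checkpoint kinase BUB1 fell in the trend (-0.72 ± 0.19 per rank, SE), with 7.78 to 21.2 CPM in the very low class against 3.37 to 5.26 CPM in the very high class. BUB1B, the BubR1 component of the checkpoint complex, fell by 0.996 per rank (SE 0.25), with 4.77 to 20.0 and 0.623 to 3.03 CPM. NDC80 and NUF2, partners in the complex that grips microtubules, fell by 0.92 (SE 0.21) and 0.60 (SE 0.17) per rank, with edgeR adjusted p of 0.0322 and 0.0478. NDC80 stood at 3.89 to 11.05 CPM in the very low class against 0.997 to 1.45 CPM in the very high class, and NUF2 at 10.1 to 19.0 and 3.37 to 5.26 CPM. CENPA, the histone that marks the centromere, ranged over 7.60 to 16.5 CPM in the very low, 6.27 to 38.1 CPM in the low and 1.12 to 2.97 CPM in the top class and did not pass in the trend (slope -0.96, edgeR adjusted p = 0.0838). TTK had 0, 0.516 and 1.82 CPM in the very low class against 0, 0 and 0.132 CPM in the very high class, at or under the count limit in all libraries but very low replicate 3.

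Spindle assembly genes had the lowest median of the roles, -3.14 between the extreme classes, and 4 of 6 fell in the trend: TPX2, KIF11, DLGAP5 and KIF2C. KIF2C, a kinesin that takes microtubules apart at centromeres, had 2.47, 3.61 and 11.3 CPM in the very low class, 1.74, 0.383 and 2.18 CPM in the high and 0.686, 0.374 and 0.660 CPM in the very high class. Its slope was -1.25 ± 0.30 (SE, edgeR adjusted p = 0.0341), while high replicate 2 lay within the very high range. ASPM, a spindle pole protein, had 3.36, 12.1 and 12.7 CPM in the very low class against 2.29, 0 and 0.923 CPM in the very high class, with no read in very high replicate 2, and did not pass (slope -1.10, edgeR adjusted p = 0.0557). NUSAP1, which bundles spindle microtubules, differed least in this group, with 8.66 to 24.6 CPM in the very low class against 7.48 to 10.2 CPM in the very high class and a log2 fold change of -0.77 ± 0.51 (SE, edgeR adjusted p = 0.383).

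In the central spindle and cytokinesis group, 3 of 5 members fell in the trend, namely ECT2, KIF20A and KIF23, and 0 passed between the extreme classes (median log2 fold change -1.80). KIF20A, a kinesin of the central spindle, had 4.42, 6.71 and 29.1 CPM in the very low class against 2.40, 1.62 and 1.32 CPM in the very high class, with a slope of -0.95 ± 0.23 (SE, edgeR adjusted p = 0.0358). KIF23, the motor of the centralspindlin complex, had 7.07, 34.8 and 27.0 CPM and 4.46, 6.36 and 5.15 CPM, with a slope of -0.80 ± 0.18 (SE, edgeR adjusted p = 0.0328). For both genes the extreme classes did not overlap. KIF4A, a chromosome-bound kinesin, differed from the other members within the very low class, where replicate 1 was its highest library (13.96, 5.94 and 12.1 CPM in replicates 1 to 3), and it had 2.49 to 5.03 CPM in the very high class. PRC1, which cross-links antiparallel microtubules, overlapped between the extreme classes, with 7.78 to 34.8 CPM in the very low class against 8.35 to 13.7 CPM in the very high class. Neither KIF4A (slope -0.47, edgeR adjusted p = 0.0660) nor PRC1 (slope -0.31, adjusted p = 0.192) passed.

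Of 3 tested genes for mitotic chromosome structure, 2 fell in the trend and 0 passed between the extreme classes (median log2 fold change -1.69). SMC4, the condensin ATPase subunit, had 35.7, 49.0 and 59.0 CPM in the very low class, 50.1, 43.2 and 57.6 CPM in the low, 30.7, 38.4 and 44.3 CPM in the high and 27.5, 26.9 and 30.2 CPM in the very high class. The very high libraries lay below the other 9, by a small step, and the slope of -0.27 ± 0.07 (SE, edgeR adjusted p = 0.0466) was the shallowest of the 17 that passed. The condensin subunit NCAPH fell by 0.78 per rank (SE 0.21, edgeR adjusted p = 0.0466), with 4.77 to 22.6 CPM in the very low class against 2.51 to 4.00 CPM in the very high class. NCAPG, of the same complex, had 11.3 to 33.5 and 5.98 to 7.78 CPM and did not pass (slope -0.69, edgeR adjusted p = 0.0731).

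The genes that work with the anaphase-promoting complex had a median log2 fold change of -2.90 between the extreme classes, where 0 of 2 passed, and 1 of 2 fell in the trend. CDC20, the activator that the checkpoint restrains, had 5.48, 14.2 and 23.7 CPM in the very low class, 13.2, 6.65 and 35.3 CPM in the low, 3.76, 2.55 and 9.68 CPM in the high and 2.06, 1.12 and 1.85 CPM in the very high class, and it fell in the trend (-1.15 ± 0.30 per rank, SE, edgeR adjusted p = 0.0425). UBE2C, the ubiquitin-conjugating enzyme of the complex, had 6.54, 18.1 and 39.8 CPM, 23.7, 17.4 and 59.5 CPM, 6.31, 8.80 and 14.2 CPM and 4.23, 1.87 and 3.83 CPM in the same order, with a slope that missed the threshold (-1.05 ± 0.30, SE, edgeR adjusted p = 0.0535). In both genes the very high libraries lay below all others.

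Between the inner classes, high and low, 0 of 31 members passed in edgeR (background 0% lower), 0 in DESeq2 (background 1.17%) and 0 in limma-voom. At an unadjusted edgeR p under 0.05, 16 members were lower in the high class (background 6.11%), and in 14 the classes did not overlap in that direction (background 9.68%). The median was -1.46 against -0.02 over all tested genes, and the summed level without CCNB1 and PLK1 was 0.449 times that of the low class. AURKA had the smallest p among the members, with 9.09, 6.53 and 20.6 CPM in the low and 4.56, 4.59 and 4.77 CPM in the high class and a log2 fold change of -1.37 ± 0.44 (SE, edgeR adjusted p = 0.364). The count of 16 was 1 without low replicate 3, 6 without high replicate 1, 7 without high replicate 2 and 0 with a smooth muscle score as covariate. The median was -0.76 without low replicate 3 and -0.85 with that covariate.

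Very high against low also gave 0 members past the edgeR threshold (background 0% lower), with 27 lower at an unadjusted p under 0.05 (background 7.44%) and 27 without overlap (background 11.1%). DESeq2 called 24 of 31 lower (background 2.27%) and limma-voom 0, and without very low replicate 1 edgeR called 4 lower. All 31 log2 fold changes were negative, with a median of -2.42 against -0.01 over all tested genes. By p, TPX2 ranked 10, DLGAP5 12 and KIF11 14 among all tested genes, each with an edgeR adjusted p of 0.268. TPX2 differed by -2.75 ± 0.52, DLGAP5 by -3.63 ± 0.73 and KIF11 by -3.14 ± 0.63 (log2, SE).

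High against very low gave 0 members past the edgeR threshold (background 0% lower), with 10 lower and CCNB1 higher at an unadjusted p under 0.05 (background 10.2% lower), 4 without overlap in the lower direction (background 9.63%), and a median of -1.26 against -0.12. DESeq2 called KIF11, AURKA and KIF23, 3 members, lower (background 3.1%) and CCNB1 higher, and limma-voom called 0. The 4 without overlap were TPX2, KIF11, AURKA and KIF2C. Leaving out very low replicate 1 gave 1 edgeR call, lower, and leaving out very low replicate 3 gave 1, higher. Leaving out very low replicate 1 took the count of 10 at an unadjusted p to 22 and leaving out very low replicate 3 took it to 2, and it was 4 without high replicate 1 or 2 and 1 with the smooth muscle covariate. The median was -0.53 without very low replicate 3 and -0.68 with that covariate.

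Low against very low gave 0 members past the edgeR threshold in either direction (background 0% lower). At an unadjusted p under 0.05, 0 were lower (background 6.36%) and CCNB1 was higher, and 0 had ranges that did not overlap in the lower direction (background 4.63%). DESeq2 called 0 lower (background 1.2%) and CCNB1 higher, and limma-voom called 0. The median log2 fold change was 0.16 against -0.06 over all tested genes, with 20 members positive and 11 negative. That direction depended on single libraries, with 27 negative (median -0.41) without low replicate 3 and 22 negative (-0.17) without very low replicate 1, against 2 negative (0.67) without very low replicate 3. The number negative was 6 without low replicate 1 and 5 without low replicate 2, and with the smooth muscle covariate the median was -0.04. TPX2, for example, had 23.4 ± 9.91 CPM in the very low class against 24.0 ± 16.5 CPM in the low class (SD, n = 3; log2 fold change 0.03 ± 0.48, SE).

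Very high against high gave 0 members past the threshold in edgeR (background 0% lower), in DESeq2 (background 0%) and in limma-voom. At an unadjusted edgeR p under 0.05, 6 were lower (background 0.392%), which were TPX2, DLGAP5, CENPF, KIF20A, UBE2C and CENPA, and 16 had very high libraries all below the high ones (background 3.89%). The count of 6 was 0 without high replicate 3, 1 without very high replicate 2 or 3, and 10 without very low replicate 1 or low replicate 3. The median was -0.91 against -0.01, with 30 of 31 negative. CENPF had the smallest p of the members, with 6.71, 7.52 and 17.7 CPM in the high class and 2.52, 0.997 and 2.90 CPM in the other (log2 fold change -2.31 ± 0.77, SE, edgeR unadjusted p = 0.0122, adjusted p above 0.99). The pairwise comparisons share class libraries with each other, so their values are given side by side only.

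Members also varied together from library to library within a class. Over the 29 tested members other than CCNB1 and PLK1, very low replicate 3 was the highest of its class in 27 and replicate 1 the lowest in 28. Low replicate 3 was the highest of its class in 28, and high replicate 3 in 28. In the very high class replicate 1 was the highest in 19 and replicate 2 the lowest in 21. Very low replicate 1 lay above all very high libraries in 25 of 29 members, but above all high libraries in only 5.

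Markers of several cell types differed along the same classes. The 14 of 14 smooth muscle markers in the table summed to 969 to 99820 CPM in the very low, 796 to 2288 CPM in the low, 16416 to 41455 CPM in the high and 16906 to 32389 CPM in the top class, and the highest value was that of very low replicate 1. Macrophage and dendritic markers (10 of 13 in the table, with AIF1, C1QA, C1QB and C1QC at 0 in every library) summed to 250.5 to 579 CPM in the very low, 150.1 to 538 CPM in the low, 67.0 to 114 CPM in the high and 50.0 to 103 CPM in the top class. T and NK markers (19 of 20) summed to 306 to 696, 243 to 730.4, 127 to 299 and 121 to 205 CPM in the same order, and neutrophil markers (9 of 10) to 302 to 19361, 3592 to 5374, 422 to 1794 and 237 to 328 CPM. Of the tested markers, 5 of 6 macrophage and dendritic, 5 of 18 T and NK, 3 of 9 neutrophil and 2 of 14 epithelial genes fell in the trend (edgeR, background 4.46% lower). Stromal fibroblast, endothelial, B and plasma, ciliated, and blood and erythroid markers had 0 called in the trend. In the trend, the 14 smooth muscle genes had a median slope of 0.01, and 0 passed with edgeR, DESeq2 or limma-voom, or at an unadjusted p under 0.05. Pairs of classes did differ. All 14 were higher without overlap in the high than in the low class (median log2 fold change 4.20, DESeq2 calling 9). Of all 10959 tested genes, 1132 were higher without overlap there and DESeq2 called 113 higher. The same held for very high over low (3.81, DESeq2 calling 7), where the counts over all tested genes were 1289 and 121. In the low class 13 were lower than in the very low at an unadjusted edgeR p under 0.05 (background 6.36%). Their median was -4.52, and DESeq2 called 9 (background 1.2% lower). In these 3 pairs edgeR and limma-voom called 0. The part of leukocytes in the members' differences was not tested.

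Epithelial markers (14 of 16) summed to 248 CPM in very low replicate 1 and to 1708 to 7013 CPM in the other 11 libraries. Stromal fibroblast markers (11 of 13) summed to 7463 to 59441 CPM over all libraries. Both lists thus had reads in every library, with weak epithelial markers in very low replicate 1. That library also had the most of the smooth muscle gene MYH11, at 1455 CPM. MYH11 stood at 2.07 and 3.12 CPM in very low replicates 2 and 3 and at 1.92 to 2.17 CPM in the low class. It reached 310 to 494 CPM in the high class and 221 to 769 CPM in the top class. The share of muscle in each biopsy was not tested, so these markers do not settle how far the endometrial label holds. Endothelial markers (12 of 12) summed to 162 to 389 CPM in the very low class against 249.6 to 439.9 CPM in the very high class, B and plasma markers (7 of 11) to 156 to 1060.4 and 196 to 420.4 CPM, and ciliated cell markers (7 of 11) to 157 to 265 and 110.2 to 242 CPM. Blood and erythroid markers (7 of 8, HBM and SLC4A1 at 0) stayed below 10 CPM in every library.

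With the smooth muscle score of each library as a covariate, 8 members were called between the extreme classes, 7 lower and CCNB1 higher. In the trend 6 fell. Between the extreme classes that fit called 1865 of all tested genes, against 167 in the main fit. Members lower there at an unadjusted edgeR p under 0.05 were 21, against 26 in the main fit. With smooth muscle and epithelial scores together, 0 were called in either (edgeR), and 1 and 11 were lower at an unadjusted p under 0.05. The fit with both scores called 0 of all tested genes between the extreme classes. The median log2 fold change of the extreme classes was then -1.47, and that of high against low was -0.03. These scores differ between the classes themselves, so the covariates can remove part of any class difference.

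**Figure D5:**
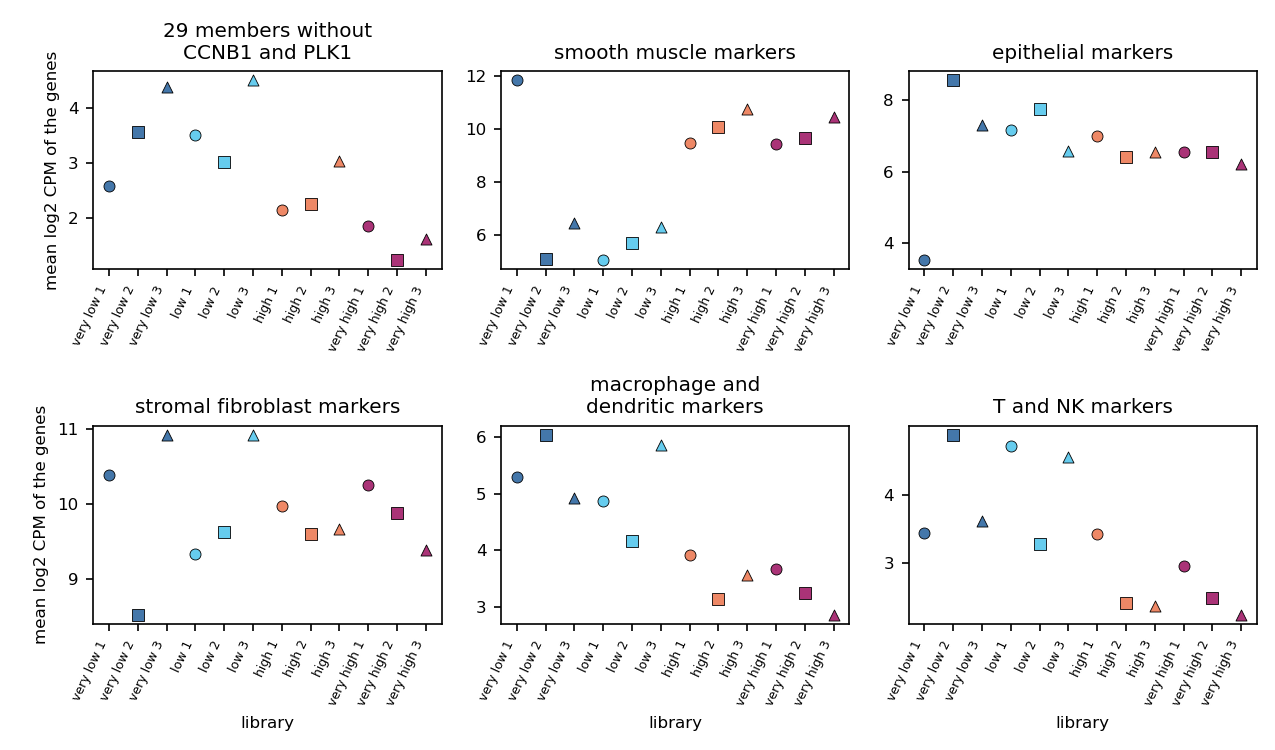
Mean log2 CPM per library of the 29 tested members other than CCNB1 and PLK1 and of markers for smooth muscle, epithelium, stromal fibroblasts, macrophages and dendritic cells, and T and NK cells. The lowest values of members, macrophage and dendritic markers and T and NK markers are in the very high class, and very low replicate 1 has the highest smooth muscle and the lowest epithelial score.

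Other cell cycle genes were read from lists which, like the members, were drawn up with earlier results of these data known. Of 97 other mitotic genes, 84 had a row and 80 were tested, with MAD2L1, DSN1, CDC25A and NCAPD2 at 0 in every library. In the trend 14 of 80 fell and 0 rose (edgeR, background 4.46% lower, median slope -0.34). MELK, a kinase of dividing cells, fell from 7.90 CPM in the very low to 1.14 CPM in the very high class (slope -0.99 ± 0.18, SE, edgeR adjusted p = 0.0224). TACC3, a spindle protein that binds Aurora A, fell from 42.3 to 9.84 CPM (-0.77 ± 0.16, adjusted p = 0.0244), and CDCA5, which protects sister chromatid cohesion, from 10.4 to 1.21 CPM (-1.15 ± 0.25, adjusted p = 0.0306). Between the extreme classes 0 of 80 passed with edgeR (background 0.411% lower). At an unadjusted edgeR p under 0.05, 37 were lower and 5 higher (background 13.4% lower). DESeq2 called 26 lower and 1 higher (background 7.11% lower), and limma-voom called 0.

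Of 41 tested S phase genes, 1 fell in the trend (edgeR, background 4.46% lower). This was RRM2, the ribonucleotide reductase subunit that supplies deoxynucleotides. It had 33.0, 46.2, 6.91 and 4.66 CPM on average in the classes ranked 1 to 4 (slope -1.19 ± 0.32, SE, edgeR adjusted p = 0.0432). The median slope of the S phase genes was -0.14, beside -0.84 for the members, and the difference between the lists was not tested. Between the extreme classes 0 of 41 passed with edgeR (background 0.411% lower). At an unadjusted edgeR p under 0.05, 8 were lower and 1 higher (background 13.4% lower). DESeq2 called 3 lower (background 7.11%) and limma-voom 0. The edgeR count of S phase genes in the trend thus lay under the share of all tested genes. The DESeq2 count between the extreme classes lay near that share. At an unadjusted edgeR p under 0.05, however, 14 of 41 were lower and 1 higher in the trend (background 16.7% lower). The slope was negative for 31 of 41, against 57.9% of all tested genes. DESeq2 called 5 lower in the trend (background 10.3%).

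Of 19 tested cell cycle inhibitors and G1 regulators, 3 fell and 1 rose in the trend (edgeR, background 4.46% lower and 3.02% higher). The one that rose, named after its values were seen, was the G1 cyclin CCND3 (slope 0.45, edgeR adjusted p = 0.0486). CDKN1A, the inhibitor p21, fell from 48.0 CPM in the very low to 8.11 CPM in the very high class (slope -0.89 ± 0.24, SE, edgeR adjusted p = 0.0438), and the G1 cyclin CCND2 from 22.3 to 5.72 CPM (-0.70 ± 0.16, adjusted p = 0.0328). Between the extreme classes 0 of 19 passed with edgeR (background 0.411% lower). At an unadjusted edgeR p under 0.05, 4 were lower and 1 higher (background 13.4% lower). DESeq2 called 3 lower and 1 higher (background 7.11% lower) and limma-voom 0.

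Reads of some members may be mixed with those of neighbours. By the RefSeq gene table of assembly ARS-UCD2.0, which matched all 32 members by symbol, 14 overlap another gene, and 5 of them (CCNA2, NUSAP1, KIF20A, NCAPG and SMC4) overlap a gene that has its own row. The libraries keep strand, but the strand setting of the counting is not given in the sources used here, so such reads cannot be told apart. TPX2, KIF11, DLGAP5, ECT2 and CCNB1 overlap no gene of that table.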

How the data were processed

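Polyadenylated RNA of 12 endometrial biopsies was sequenced from stranded libraries run as 1 pool, per the labels' protocols, so the labels separate no sequencing batch. FastQC 0.11.2, Trimmomatic 0.32 and the builds UMD3.1 and bosTau8 are listed as used, per the submitters' processing notes. Aligner, read counter, strand setting and gene annotation: not given in the sources used here. The authors deposited raw counts, whole numbers of reads per gene symbol in 1 column per sample, neither scaled nor pooled.

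The main test was edgeR 4.0.16 (R 4.3.3), run on these counts. Low genes were removed by filterByExpr by class (count minimum 10), library sizes were scaled by TMM (factors 0.728 to 1.11), and the 4 classes were fitted together over all 12 libraries by quasi-likelihood, with 8 residual degrees of freedom and a common biological coefficient of variation of 44.0%. The trend used class rank in place of the class means. The standard errors (SE) given with edgeR values were not read from the fit. Each is the absolute log2 fold change or slope divided by the square root of the quasi-likelihood F statistic. A call is an adjusted p (Benjamini-Hochberg over the 10959 tested genes) under 0.05. DESeq2 1.42.0 and limma 3.58.1 (voom) were alternatives, with other scalings, count filters, thinning to the smallest library, covariates and left-out libraries. No 2 libraries of a class were one library counted again (chi-square per degree of freedom 21.8 to 284).

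Full values were given for MKI67, TOP2A, CDK1 and FOXM1 where measured, every member called between the extreme classes, the 3 called members with the smallest p in each other comparison, and members that moved against the median. Members with values beyond this rule were chosen to cover each role, and those with the smallest p where no member was called. In the other cell cycle lists the 3 called genes with the smallest p were named, except 1 that is not reported here. The members and the gene lists were chosen with earlier results of these data known. Markers of 10 cell types were listed in the same way. A planned description of promoter motifs was not made, since no sequence was used here.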

Additional observations from a re-analysis of the deposited data

How the results depend on the processing

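No member that passed in the comparison of the extreme classes changed direction under any alternative that gave it a value. TPX2 and KIF11 passed in 10 of 23 alternatives each and DLGAP5 in 8 of 22. For very high against very low, the count of 3 called members was 27 with DESeq2 and 8 with the smooth muscle covariate. It was 0 with limma-voom, with only these classes in the fit, with the replicate block and with smooth muscle and epithelial covariates together. Over all genes tested in each fit, the calls were 1510, 1865, 1, 0, 0 and 0 in the same order. The main fit called 167. With those covariates together the median was -1.47. For the trend, the count of 17 went to 26 under DESeq2, to 5 under limma-voom, to 6 with the smooth muscle covariate and to 0 with both covariates, and the median slope was -0.56 and -0.52 with them. For high against low the median was -0.85 with the smooth muscle covariate and -0.027 with both. For very high against low, DESeq2 called 24, and the median was -1.72 with the smooth muscle covariate and -1.49 with both. For high against very low, DESeq2 called 4 and the smooth muscle fit 1, and the median was -0.68 with the smooth muscle covariate and -0.20 with both. For low against very low, DESeq2 called 1. The cause of these differences was not tested.

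Leaving out 1 library at a time gave 0 to 19 calls for very high against very low (median -2.64 to -1.63), 0 to 27 for the trend (median -1.01 to -0.74), 0 for high against low (-1.79 to -0.76), 0 to 4 for very high against low (-2.62 to -1.94), 0 to 1 for high against very low (-1.65 to -0.53), 0 for low against very low (-0.41 to 0.67) and 0 for very high against high (-1.11 to -0.68).

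PLK1 changed sign. Its log2 fold change of very high over very low was -0.46 with both covariates, and -0.39 to 1.09 with 1 library left out, negative without very low replicate 1, very low replicate 3 or very high replicate 3. Its slope was 0.075 with limma-voom, 0.37 with the smooth muscle covariate, 0.21 with both and 0.11 without very low replicate 2.

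Whether replicate numbers shared by the classes pair the samples was not settled. In deviations from the class mean, 3 of 18 same-number pairs correlated above 0.1, with r from -0.298 to 0.294. The 36 other pairs had r from -0.391 to 0.369, and 4 of 12 libraries correlated best with their own number. With 3 libraries a class that differ in tissue markers, these correlations show no pairing but cannot exclude it. The replicate block gave 0 calls for very high against very low and 7 for the trend, with medians of -2.06 and -0.80.

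Low counts limit the very high class, where several members had fewer than 10 reads in a library. Its libraries were not shallow, with 7202893 to 8379489 counted reads. Counts under 10 also occurred in other classes, such as 7 for CDK1 in very low replicate 1 and 3 for KIF2C in high replicate 2. With 3 libraries in each class and a wide spread in the very low and low classes, a call missed by edgeR does not show that a gene's level was the same.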
